A study of Mus musculus with 6 samples.

Results

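The voltage-gated sodium channel genes of cultured mouse cerebellar granule neurons were described from a count table of 23366 genes. Members were the rows named Scn1a, Scn2a1, Scn3a, Scn7a, Scn8a and Scn9a, which encode alpha subunits, and Scn2b, Scn3b and Scn4b, which encode beta subunits. They were chosen by name and not by their values, though with earlier results of these data known. All 9 were in the table, and all 9 passed the filter on low counts that left 15731 genes to test. Scn2a1 is the older symbol of Scn2a.

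Cells came from the cerebella of C57BL/6 mice on postnatal day 7, with a litter pooled at dissection, and were enriched for granule cells on a Percoll gradient. All cultures received lentivirus on day 1 in vitro. The control group carried the empty pLKO.1 vector (n = 3) and the knockdown group carried pLKO.1 with a short hairpin RNA against Kdm6b (n = 3). The labels give 1 hairpin sequence, the control vector has no hairpin, and neither group was uninfected. Kdm6b encodes an enzyme that removes the repressive trimethyl mark from a lysine of histone H3, and the comparison asks which transcripts differ when Kdm6b is lowered while granule neurons mature.

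A voltage-gated sodium channel is built around 1 large alpha subunit, whose 4 homologous domains form the pore, sense the membrane voltage and close the channel again with a short inactivation gate. Small single-pass beta subunits join it and change its gating, its delivery to the membrane and its contacts with neighbouring cells. In granule neurons these channels start action potentials at the axon initial segment, and immature brain neurons carry a different mixture of alpha subunits from mature ones.

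The alpha subunit genes are close relatives, which bears on how far 50-base reads can be told apart. In the GENCODE M21 annotation (build GRCm38) 5 of them lie on chromosome 2: Scn3a from 65457118 to 65567627, Scn2a from 65620771 to 65767447, Scn1a from 66270778 to 66440840, Scn9a from 66480080 to 66634962 and Scn7a from 66673425 to 66784914. Scn2a is on the plus strand and the other 4 are on the minus strand. Scn8a lies apart on chromosome 15 from 100869858 to 101045938.

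Stretches shared at read length were a minor part of each transcript. Of the 50-base windows of Scn3a, 8.53% were also present in a transcript of another gene, and the figure was 7.87% for Scn2a, 5.53% for Scn9a, 5.48% for Scn1a and 0.0527% for Scn8a. No window of Scn7a, Scn3b or Scn4b was shared, and the 1.02% of Scn2b windows that were shared matched no sodium channel gene. Reads that did not align uniquely were tallied apart from the genes in the deposited table. The 3 beta subunit members lie on chromosome 9, with Scn3b from 40269217 to 40291618, Scn2b from 45117782 to 45130070 and Scn4b from 45138395 to 45154152. Among the members only Scn9a had exons that overlap a gene on the opposite strand, by 180 bases of Gm13629.

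Gene counts per library ranged from 50326298 to 88214069. Values are CPM, counts scaled to library size with the trimmed mean of M values (TMM). Kdm6b was at 257, 146 and 170 CPM in control replicates 1 to 3 against 88.8, 63.3 and 79.8 CPM in the knockdowns, so the groups did not overlap. Its exons overlap those of the antisense gene Kdm6bos, whose reads can be told apart only if strand was used in the counting. The log2 fold change was −1.31 ± 0.25 (SE; adjusted p = 0.216, edgeR quasi-likelihood test with Benjamini-Hochberg adjustment). Equal replicate numbers marked libraries that departed from their group in the same way, and with that number as a block the change was −1.28 ± 0.11 (adjusted p = 0.0282, edgeR). That call was lost without replicate 1 (adjusted p = 0.0933) and without replicate 2 (adjusted p = 0.0515). Granule neuron markers were the leading neuronal set, with the 11 mature markers summing to 4240–5320 CPM in the controls and 3590–4550 CPM in the knockdowns. The 6 Purkinje markers summed to 32–79.5 CPM in the controls and 29.6–66.2 CPM in the knockdowns. Among them Pcp2 had at most 2 counts in a library, whereas Itpr1 had 1370 to 3009.

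Sodium channel genes as a group showed no common direction. Without the block, edgeR called 0 of 9 members at an adjusted p under 0.05, against 1 of 15731 genes (0.00636%) over the whole table. At an unadjusted p under 0.05 it counted 1 of 9 members, Scn3a, against 10.6% of all genes. With the block it called 1 of 9, Scn3b, which fell, against a background of 7.98% in either direction and 5.40% lower. DESeq2 without a block called Scn3a alone, as higher, against 3.84% of genes called, 1.20% as higher and 2.63% as lower. DESeq2 with a block called Scn3a higher and Scn3b and Scn2a1 lower, where it called 23.7% of genes, 8.10% as higher and 15.6% as lower. The median log2 fold change of the 9 members was −0.01 without the block, and that of all genes tested was 0.02. The groups did not overlap for 2 of 9 members, Scn3a and Scn9a, both higher in the knockdown. Over all genes tested this held for 16.7%, with 9.21% higher and 7.44% lower.

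**Figure D1:**
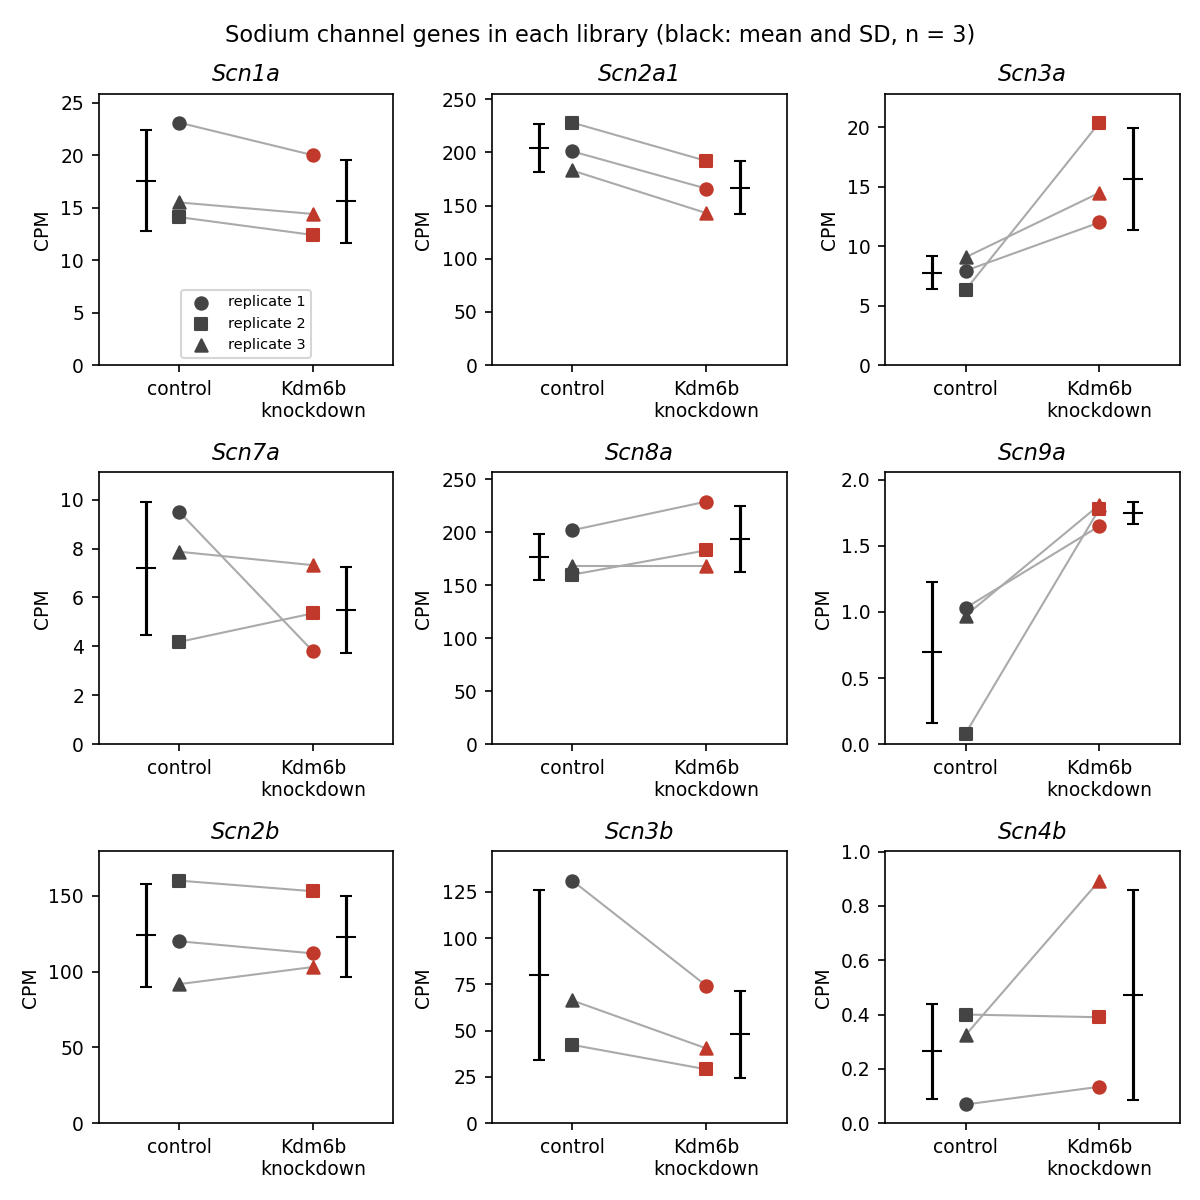
CPM of each sodium channel gene in the 6 libraries, on a linear axis per gene; lines join libraries with the same replicate number, and black bars give the mean and SD of 3 libraries. Scn3a lay between 6.32 and 9.07 CPM in the controls and between 12.0 and 20.4 CPM in the knockdowns, and Scn3b was lower in the knockdown library of each replicate number while its groups overlapped.

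Scn2a1 and Scn8a, the main alpha subunits of adult excitatory neurons, were the most abundant alpha transcripts. Scn2a1 was at 201, 228 and 183 CPM in the controls, against 166, 192 and 143 CPM in the knockdowns. Its knockdown value was lower in each of the 3 replicate pairs, although the highest knockdown exceeded the lowest control. The means were 204 ± 22.6 and 167 ± 24.7 CPM (SD, n = 3 each), and the log2 fold change was −0.29 ± 0.15 (SE; adjusted p = 0.544, edgeR). With the block it was −0.30 ± 0.07 (adjusted p = 0.0607, edgeR), and only DESeq2 with the block put it past the threshold (adjusted p = 0.00958). Over all 22 alternative settings the log2 fold change stayed between −0.42 and −0.19.

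Scn8a, whose channel becomes the main type at the mature axon initial segment and nodes of Ranvier, was at 202, 160 and 168 CPM in the controls, against 229, 183 and 168 CPM in the knockdowns. The knockdown value was higher in pairs 1 and 2 and equal to 3 digits in pair 3. The means were 177 ± 22.0 and 194 ± 31.3 CPM (SD, n = 3 each), with a log2 fold change of 0.13 ± 0.16 (SE; adjusted p = 0.799, edgeR), or 0.13 ± 0.08 with the block (adjusted p = 0.292). The difference was smaller than the spread between replicates, and without knockdown replicate 1 it was −0.01.

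Scn3a, the alpha subunit known for high expression in embryonic and newborn brain, had the smallest p among the 9 members without the block. It was at 7.94, 6.32 and 9.07 CPM in the controls, from 577, 316 and 476 counts. The knockdowns were at 12.0, 20.4 and 14.5 CPM, from 1074, 1098 and 990 counts. All 3 knockdown libraries lay above all 3 controls, and the mean went from 7.78 ± 1.38 to 15.6 ± 4.30 CPM (SD, n = 3 each), a ratio of 2.01. The log2 fold change was 1.01 ± 0.26 (SE; unadjusted p = 0.00756, adjusted p = 0.321, edgeR) and 0.98 ± 0.25 with the block (adjusted p = 0.0720), so it did not pass in edgeR. DESeq2 put it past the threshold without the block (adjusted p = 0.0264) and with it (adjusted p = 0.00267). The log2 differences within pairs were 0.60, 1.69 and 0.68, and the largest belongs to replicate 2. Each of the 22 alternative settings gave a higher value in the knockdown, from 0.62 to 1.18, and 2 of them passed.

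The summed level of 8 pericyte and fibroblast markers also separated the groups, at 11300–20500 CPM in the controls and 3720–9570 CPM in the knockdowns, and most of that sum came from the collagens Col1a1, Col1a2 and Col3a1. Singly, only Col3a1 and Pdgfrb of the 8 had groups that did not overlap, both lower in the knockdown, against 7.44% of all genes tested. None was at 0, and with the block edgeR called 5 of 8 lower (Acta2, Col1a1, Col1a2, Col3a1 and Pdgfrb), against 5.40% of all genes. The pericyte marker Rgs5 was higher in 2 of 3 pairs and did not pass. Newborn granule neuron markers summed to 1550–2230 and 1400–2210 CPM in control and knockdown, with 2 of 7 called higher and 1 lower with the block (2.58% and 5.40% of all genes). Those higher were Tubb3, at 84.2 ± 1.04 and 174 ± 37.9 CPM (SD, n = 3 each), and Nhlh2, and Cntn2 was lower. Of the 11 mature markers 2, Etv1 and Grm4, were called lower with the block, against 5.40% of all genes. Gabrd and Slc17a7 were lower without overlap and Neurod2 and Zic1 were higher in each of the 3 pairs, and none of these passed in edgeR. The median log2 fold change with the block was 0.26 for the newborn list and −0.41 for the mature list, against 0.02 for all genes tested. The part of these cell sets in the sodium channel values was not tested, and in bulk RNA fewer cells of a type and less RNA per cell cannot be told apart.

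Scn1a, an alpha subunit best known from inhibitory neurons and from inherited epilepsies, was at 23.1, 14.1 and 15.5 CPM in the controls, against 20, 12.4 and 14.4 CPM in the knockdowns. Replicate 1 was the highest library of both groups, and the knockdown was slightly lower in each pair. The log2 fold change was −0.17 ± 0.27 (SE; adjusted p = 0.843, edgeR), or −0.17 ± 0.09 with the block (adjusted p = 0.232), and without control replicate 1 it was 0.07. By replicate number, the control sums of the 8 GABAergic interneuron markers were 243, 473 and 355 CPM. The knockdown sums were 154, 352 and 326 CPM. Replicate 1, the highest library for Scn1a, was thus the lowest for this sum in both groups. With the block Gad1 was called lower, 1 of 8 against 5.40% of all genes. Gad2 and Pax2 of the same list were higher in each of the 3 pairs and did not pass. The part of these markers in the Scn1a values was not tested.

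Scn7a encodes a divergent member that serves as a sensor of the extracellular sodium level rather than as a classical voltage-gated channel. It was at 9.51, 4.18 and 7.87 CPM in the controls, against 3.8, 5.35 and 7.32 CPM in the knockdowns. The pairs did not share a direction, with log2 differences of −1.32, 0.35 and −0.11. The fitted change was −0.39 ± 0.39 (SE; adjusted p = 0.746, edgeR), and with the block it was −0.36 ± 0.35 (adjusted p = 0.501).

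Scn9a, an alpha subunit best known from pain-sensing neurons, had few reads, with 75, 4 and 51 counts in the controls and 148, 96 and 124 in the knockdowns. These are 1.03, 0.0800 and 0.972 CPM against 1.65, 1.78 and 1.81 CPM. The knockdown libraries were close together and above all controls, and control replicate 2 stood apart with its 4 counts. The log2 fold change was 1.32 ± 0.79 (SE; adjusted p = 0.582, edgeR), or 1.58 ± 0.71 with the block (adjusted p = 0.190). It was higher in the knockdown in all 22 alternative settings, from 0.77 to 2.12, and passed in none.

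The beta subunits differed from one another. Scn2b, whose product is joined to the alpha subunit by a disulfide bond, was at 120, 160 and 91.7 CPM in the controls, against 112, 153 and 103 CPM in the knockdowns. Each knockdown library was close to the control of its own number. The means were 124 ± 34.1 and 123 ± 26.8 CPM (SD, n = 3 each), and the log2 fold change was −0.01 ± 0.25 without the block and 0.00 ± 0.08 with it (adjusted p = 0.991 and 0.979, edgeR).

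Scn3b, whose product associates with the alpha subunit without a covalent bond, was the only member called in edgeR with the block. It was at 131, 42.3 and 66.3 CPM in the controls, against 74.3, 29.1 and 40.4 CPM in the knockdowns. The libraries of each number kept the same order in both groups, with replicate 1 highest and replicate 2 lowest, and the groups overlapped. Within pairs the log2 differences were −0.82, −0.54 and −0.72. With the block Scn3b fell by 0.69 ± 0.08 on the log2 scale (SE; adjusted p = 0.0282, edgeR). Without it the change was −0.74 ± 0.51 (adjusted p = 0.628), on means of 80.0 ± 46.1 and 47.9 ± 23.5 CPM (SD, n = 3 each). The block call was lost without replicate 1 (−0.63, adjusted p = 0.114) and without replicate 2 (−0.79, adjusted p = 0.0515) and held without replicate 3 (−0.69, adjusted p = 0.0435). It passed in 8 of 10 settings with the block and in 0 of 12 without, and without the block it was −0.18 when control replicate 1 was left out and −1.21 when knockdown replicate 1 was left out.

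The oligodendrocyte lineage markers were also lowest in replicate 2 of both groups. Their 8 genes summed to 1140, 230 and 1070 CPM in the controls, against 857, 156 and 798 CPM in the knockdowns, none was at 0 in a whole group, and with the block 2 of 8 were called lower, against 5.40% of all genes. Their part in the Scn3b values was not tested.

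Scn4b, a beta subunit associated with resurgent sodium current in cerebellar neurons, was near the limit of detection. It had 5, 20 and 17 counts in the controls and 12, 21 and 61 in the knockdowns, or 0.264 ± 0.174 and 0.472 ± 0.386 CPM (SD, n = 3 each). The largest value was that of knockdown replicate 3, and without that library the log2 fold change went from 0.85 ± 0.87 (SE; adjusted p = 0.754, edgeR) to −0.02. With the block it was 0.79 ± 0.42 (adjusted p = 0.245).

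**Figure D2:**
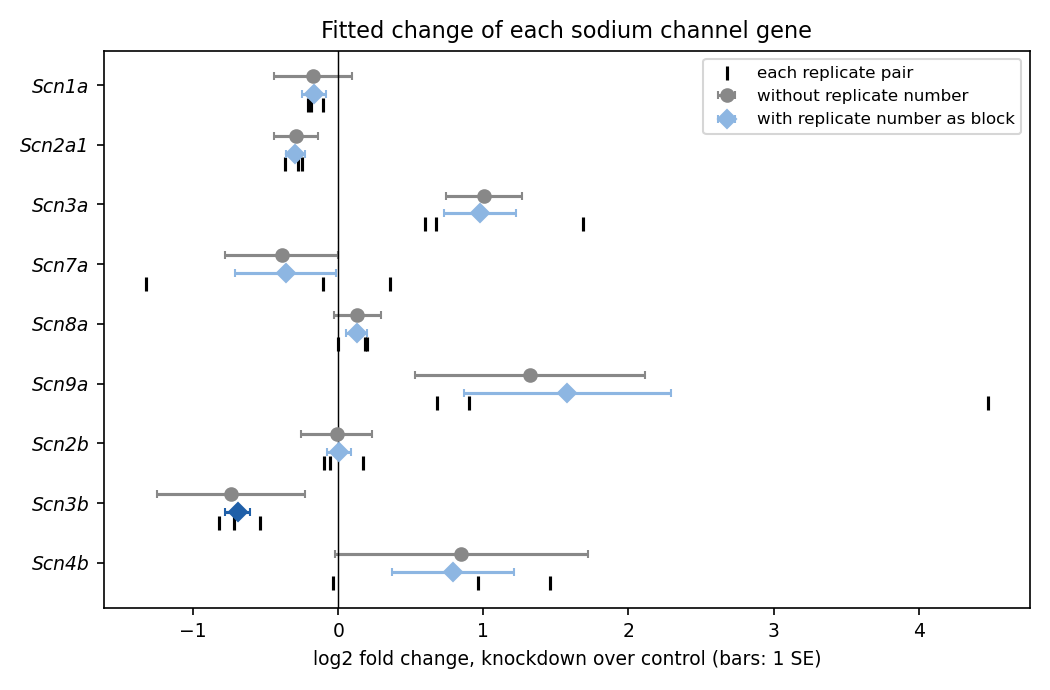
Log2 fold change of knockdown over control for each sodium channel gene, fitted by edgeR without (grey) and with (blue diamonds) the replicate number as a block, with bars of 1 SE and black ticks for the 3 pairs; dark blue marks an adjusted p under 0.05. Scn3b is the only gene in dark blue, and the pairs of Scn3a lie at 0.60, 0.68 and 1.69.

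Levels of different genes were compared per kilobase of the longest coding transcript, as CPM per kilobase. In the controls Scn2b stood highest at 26.6 ± 7.32, followed by Scn2a1 at 22.9 ± 2.53, Scn3b at 19.3 ± 11.1 and Scn8a at 15.5 ± 1.92 (SD, n = 3 each). The controls of Scn2b and Scn2a1 overlapped, as did those of Scn3b with each of the other 3, while the highest Scn8a control (17.6) lay below the lowest of Scn2b (19.7) and of Scn2a1 (20.5). The order of the control means was the same with merged exons as the length. Scn1a followed at 2.09 ± 0.574, with its lowest control (1.68) above the highest control of Scn7a (1.30). Scn7a at 0.980 ± 0.372 and Scn3a at 0.814 ± 0.144 overlapped, and Scn9a at 0.0706 ± 0.0542 and Scn4b at 0.0531 ± 0.0348 overlapped as well.

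The order differed between the groups at a few places. In the knockdowns Scn3a was at 1.63 ± 0.450, and its lowest library (1.26) lay above the highest of Scn7a (0.997). Scn8a at 16.9 ± 2.74 stood after Scn2b at 26.4 ± 5.76 and Scn2a1 at 18.7 ± 2.77, and the libraries of Scn8a and Scn2a1 overlapped. Scn3b was at 11.6 ± 5.67 and Scn1a at 1.86 ± 0.471 CPM per kilobase.

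**Figure D3:**
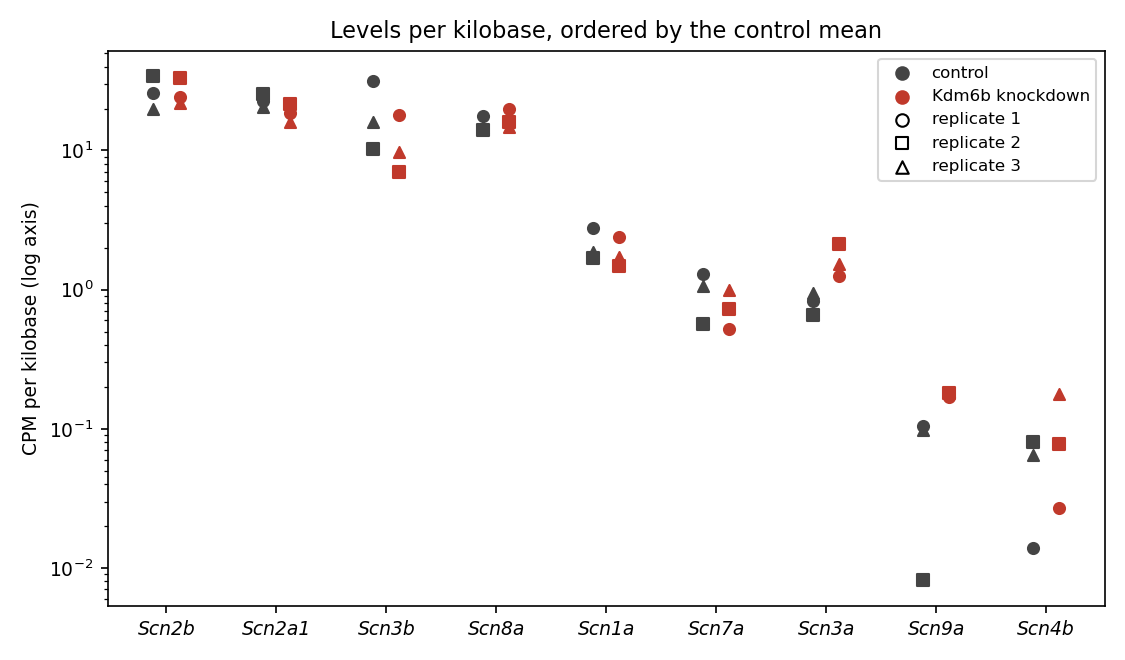
CPM per kilobase of the 9 sodium channel genes in each library, on a log axis, ordered by the control mean (grey, control; red, knockdown; shapes, replicate numbers). The 4 genes at the left lie between 7.01 and 34.3 CPM per kilobase, and in the knockdowns all 3 Scn3a points lie above all 3 Scn7a points.

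The makeup of the alpha subunit transcripts was then taken within each library, as each gene's share of the 6 summed levels per kilobase. These shares and ratios were chosen after the values were seen, they use the same counts as the fits, and 14 such quantities were computed. With 3 libraries against 3, an exact two-sided permutation test cannot go below p = 0.1, and the smallest value after Benjamini-Hochberg adjustment over the 14 quantities was 0.467. Scn2a1 made up 49.8%, 60.2% and 52.3% of the alpha pool in the controls and 43.3%, 51.1% and 45.5% in the knockdowns. Its share was lower in each pair, and the groups overlapped (exact permutation p = 0.2, adjusted 0.467). Scn8a made up 39.1%, 33% and 37.5% in the controls and 46.6%, 38.1% and 42.0% in the knockdowns, higher in each pair with overlapping groups (exact permutation p = 0.2, adjusted 0.467). Shares within a library sum to 100%, so the lower Scn2a1 share and the higher Scn8a share are not separate results.

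Scn3a was a small part of the pool in both groups. Its share was 1.84%, 1.56% and 2.42% in the controls and 2.93%, 5.07% and 4.32% in the knockdowns, without overlap (exact permutation p = 0.1, the smallest possible). Scn9a made up at most 0.252% in a control and at least 0.392% in a knockdown (exact permutation p = 0.1). The summed alpha level was 42.3 ± 2.93 CPM per kilobase in the controls and 40 ± 4.28 in the knockdowns (SD, n = 3 each; exact permutation p = 0.6). It was lower in each pair and the groups overlapped, and the difference of −2.25 became −0.401 with library totals alone.

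Ratios of raw counts between 2 genes of the same library do not depend on library scaling. Per 100 counts of Scn2a1 there were 3.96, 2.77 and 4.94 counts of Scn3a in the controls and 7.24, 10.6 and 10.2 in the knockdowns. The ratio was higher in all 3 knockdown libraries than in any control, with means of 3.89 ± 1.09 and 9.34 ± 1.83 (SD, n = 3 each; exact permutation p = 0.1). Scn8a had 100, 70.1 and 91.8 counts per 100 of Scn2a1 in the controls and 138, 95.5 and 118 in the knockdowns. That ratio was higher in each pair, and the groups overlapped (exact permutation p = 0.2).

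**Figure D4:**
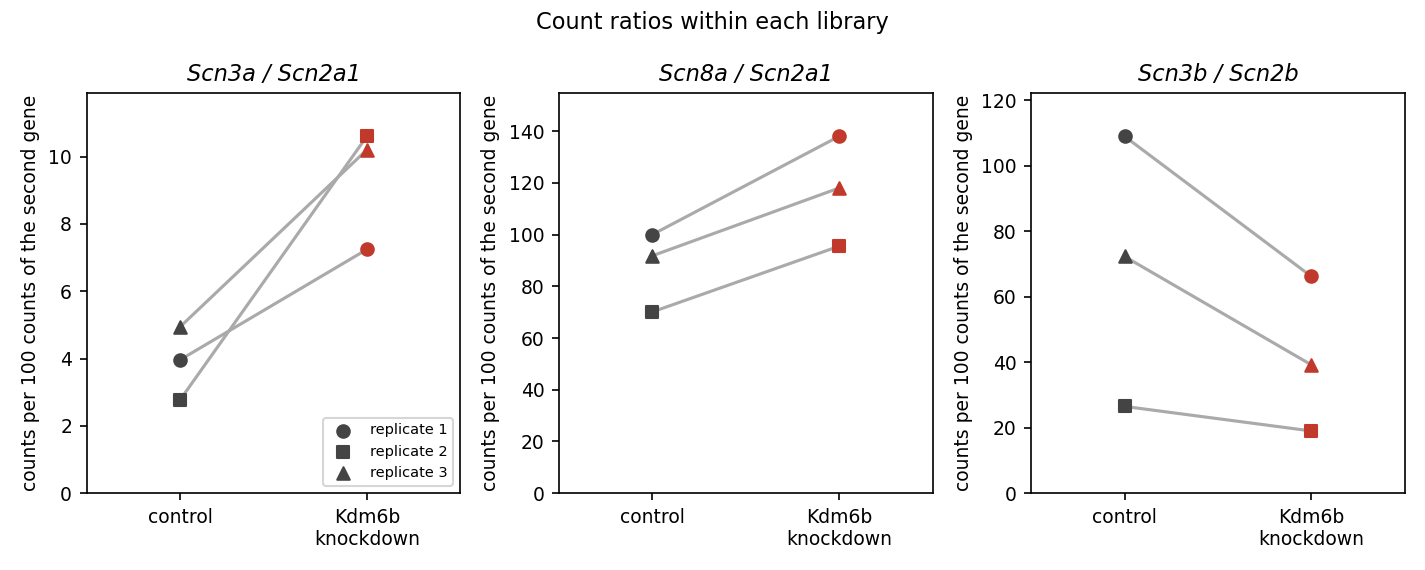
Counts of 1 sodium channel gene per 100 counts of another in the same library, with lines joining equal replicate numbers. Scn3a per Scn2a1 lies between 2.77 and 4.94 in the controls and between 7.24 and 10.6 in the knockdowns, while the groups overlap for Scn8a per Scn2a1 and for Scn3b per Scn2b.

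Among the 3 beta subunit members, Scn2b made up 44.9%, 76.9% and 55.1% of their summed level per kilobase in the controls and 57.3%, 82.3% and 69.1% in the knockdowns (exact permutation p = 0.4). Its share was higher in each pair, and the groups overlapped. Scn3b made up 55.1%, 22.9% and 44.7% in the controls and 42.6%, 17.5% and 30.4% in the knockdowns (exact permutation p = 0.4). Its share was lower in each pair, and the spread between replicates was larger than the difference. Scn4b made up at most 0.559% in a library, so the Scn2b and Scn3b shares mirror each other and are not separate results. The summed level of the 3 genes was 45.9 ± 10.9 CPM per kilobase in the controls and 38 ± 5.29 in the knockdowns (SD, n = 3 each; exact permutation p = 0.4), lower in each pair with overlapping groups. Scn3b had 109, 26.5 and 72.3 counts per 100 of Scn2b in the controls and 66.2, 19.0 and 39.2 in the knockdowns, lower in each pair (exact permutation p = 0.4).

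The genes with the most similar pattern over the 6 libraries were sought for the 3 most abundant members and for Scn3b among 11780 genes, all at 5 CPM or more on average. Likeness was the root mean square difference of log2 CPM, each centred on its own mean. Scn2a1 was nearest to Fastkd5 (0.058) and Klf8 (0.062), and Scn8a was nearest to Ccdc50 (0.024) and Cwf19l2 (0.025). Scn2b was nearest to Parp12 (0.052) and Calm2 (0.076), and Scn3b to Tgm1 (0.14) and Galnt14 (0.176). Among the members, Scn2a1 and Scn2b, each the nearest member of the other, differed by 0.217, Scn8a and Scn1a by 0.221 and Scn3b and Scn1a by 0.422.

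Genes that act with sodium channels were taken as 5 lists of 56 genes, of which 55 were tested. Without the block edgeR called 0 of 55, and with the block it called 1 higher (2.58% of all genes) and 6 lower (5.40% of all genes). Without replicate 1, or without replicate 2, the block called 0 of them, and without replicate 3 it called 1 higher and 6 lower.

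The axon initial segment and channel-binding list, the longest of the lists, held the most calls. With the block 4 of 21 were called, all lower, against 5.40% of all genes called lower, while its median log2 fold change was 0.07. Kcnq3, a potassium channel subunit anchored beside sodium channels at the axon initial segment, was at 13.1, 23.2 and 12.7 CPM in the controls, against 4.62, 7.28 and 4.29 CPM in the knockdowns. It fell by 1.58 ± 0.11 on the log2 scale (SE; adjusted p = 0.0282, edgeR with block). Fgf14 and Fgf12 encode intracellular FGF homologous factors that bind the tail of alpha subunits. Fgf14 went from 54.0 ± 7.24 to 32.8 ± 7.36 CPM (SD, n = 3 each) and fell by 0.74 ± 0.09 (SE; adjusted p = 0.0291, edgeR with block). Fgf12 went from 95.0 ± 39.7 to 59.4 ± 14.0 CPM and fell by 0.62 ± 0.11 (adjusted p = 0.0455, edgeR with block), with overlapping groups.

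Cntn1, an adhesion molecule that binds beta subunits, went from 258 ± 54.7 to 170 ± 29.8 CPM (SD, n = 3 each) and fell by 0.60 ± 0.07 (SE; adjusted p = 0.0282, edgeR with block). None of these 4 passed in edgeR without the block, where the adjusted p was 0.249 for Kcnq3, 0.327 for Fgf14, 0.423 for Cntn1 and 0.520 for Fgf12. The groups overlapped only for Fgf12 among the 4, which were named because they were called. Over all genes tested, 7.44% had groups that did not overlap with the knockdown lower.

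Of 8 proteases that cut beta subunits, Aph1b, a part of the gamma-secretase complex, fell with the block, from 31.9 ± 2.71 to 22.3 ± 2.34 CPM (log2 fold change −0.52 ± 0.07 SE, adjusted p = 0.0347, edgeR), and the list median was −0.04. Of 13 sodium pump and exchanger genes, the sodium-calcium exchanger Slc8a2 was at 306, 618 and 242 CPM in the controls, against 165, 188 and 135 CPM in the knockdowns. With the block it fell by 1.15 ± 0.20 (SE; adjusted p = 0.0430, edgeR), and control replicate 2 was the highest library. Fxyd7, a small regulator of the sodium pump, was at 4.89, 1.94 and 7.18 CPM in the controls, against 10.6, 7.22 and 14.1 CPM in the knockdowns. It rose by 1.31 ± 0.22 with the block (SE; adjusted p = 0.0410, edgeR). The list median was −0.15, and the adjusted p without the block was 0.324 for Aph1b, 0.364 for Slc8a2 and 0.484 for Fxyd7.

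No gene passed in edgeR in the other 2 lists. Among 9 genes of the REST repressor complex, which silences neuronal genes including sodium channels in cells outside the nervous system, Rest was at 22.9 ± 6.02 and 16.5 ± 5.85 CPM (SD, n = 3 each; −0.51 ± 0.11 SE with the block, adjusted p = 0.0568). Hdac2, a histone deacetylase of that complex, had the smallest p without the block, at 124 ± 7.78 and 151 ± 17.95 CPM (adjusted p = 0.498). In the sodium leak channel complex 4 of 5 genes were in the table, and Fam155a, a subunit needed for leak channel function, was at 22.0 ± 1.92 and 33.6 ± 13.1 CPM (0.61 ± 0.28 SE, adjusted p = 0.503). Exons of Fam155a and of Fgf14 overlap those of another annotated gene, and the sources used here do not say how such reads were counted.

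**Figure D5:**
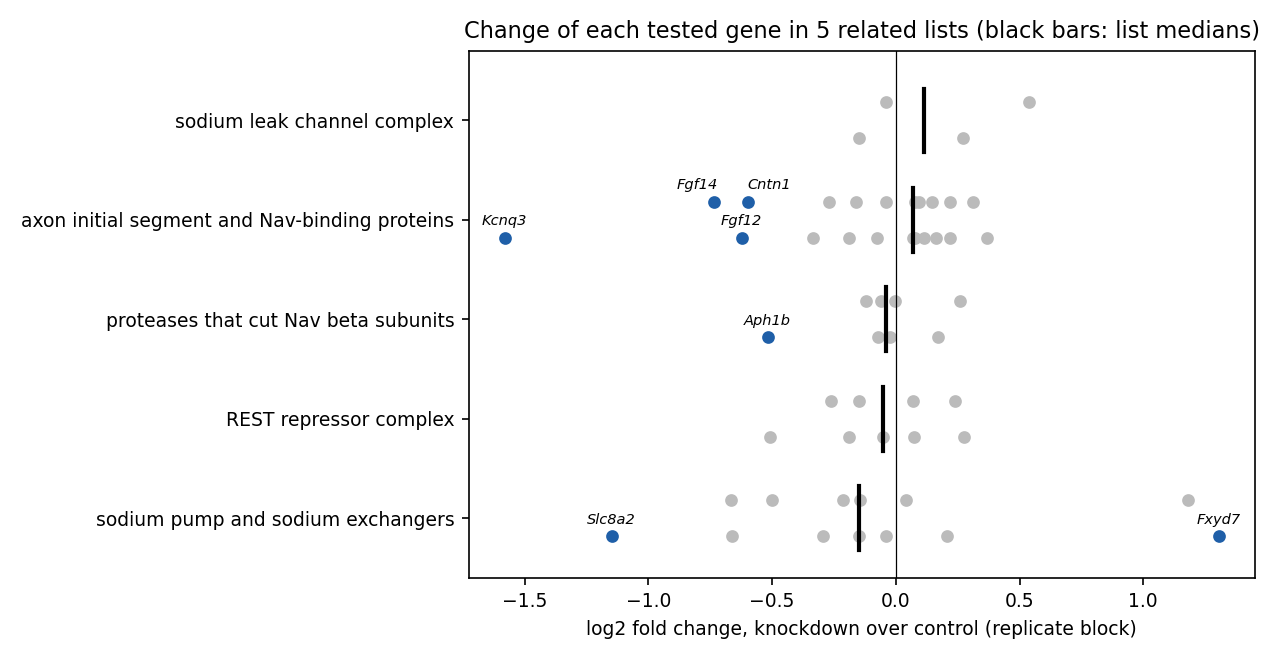
Log2 fold change from edgeR with the replicate block for each tested gene of 5 lists related to sodium channels; blue marks an adjusted p under 0.05 and black bars mark list medians. The 4 called genes of the axon initial segment list lie from −1.58 to −0.60, while that list's median is 0.07.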

How the data were processed

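Stranded mRNA sequencing with 50-base single-end reads was done on 6 libraries, per the labels' protocols. The authors deposited raw counts of reads per gene. Build mm9 and the tools TopHat2, HTSeq, Trimmomatic, DESeq2 and edgeR are named, per the submitters' processing notes. Not given in the sources used here are versions, annotation, the strand setting, the harvest day and which cultures received BDNF. Tallies that name no gene stayed out of library sizes: 12.1% to 15.0% of counts outside genes, 0.406% to 0.509% ambiguous and 16.0% to 19.3% not uniquely aligned. Replicates differed by more than sampling noise. The labels name no separate cultures, and p-values then reflect only how far these samples spread.

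Counts were fitted with edgeR 4.0.16 (filterByExpr with minimum count 10 and total 15, TMM, quasi-likelihood F test) in R 4.3.3 over 15731 genes, and p-values were adjusted by the Benjamini-Hochberg method over all of them at 0.05. Standard errors were taken as the size of the log2 change over the root of its F statistic. The procedure was tested on simulated data, where the fit with the block called unchanged genes and the fit without it called none. An adjusted p threshold of 0.05 allows some such calls. The simulation gave both groups the same replicate differences and took its scatter from the design with the block. It therefore cannot show which fit is sounder for these data. Deviations of same-numbered libraries correlated at 0.772, 0.709 and 0.701, against −0.532 to −0.135 for unequal numbers. This pairing comes from the data and not from the labels, and deviations within a group sum to 0. The blocked value is therefore given beside each member. Alternatives were other scalings, no filter, DESeq2 1.42.0, limma-voom (limma 3.58.1), the replicate block and leaving out libraries. Members and gene lists were chosen with earlier results of these data known. Named were all members, Kdm6b, each list's called genes or else its smallest p, and the 2 nearest patterns, and some genes and sequences are not reported here. Gene lengths, coordinates and transcript windows come from GENCODE M21 (GRCm38), matched by symbol. Coordinates were not converted from mm9.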

Additional observations from a re-analysis of the deposited data

How the results depend on the processing

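Across 22 alternatives Scn2a1, Scn3a, Scn3b and Scn9a kept their sign. Without the replicate block, edgeR called 0 genes higher and 1 lower, none lower with library totals alone or when any 1 library was left out, and DESeq2 called 178 and 390. With the replicate block 406 rose and 850 fell. The split was 370 and 972 with RLE factors, 448 and 902 with upper-quartile factors, 723 and 553 with library totals alone, 495 and 1103 unfiltered (no filter), 1175 and 2265 in DESeq2 and 468 and 926 in limma-voom. Leaving out pairs 1, 2 and 3 gave 0, 13 and 225 higher and 0, 40 and 1047 lower. Library totals alone thus turned the balance of the block calls, and shifted the median of all genes from 0.02 to 0.09. Among members, DESeq2 called 1 higher with and without the replicate block. The block called 1 lower in edgeR under every scaling, with no filter, in limma-voom and without replicate 3, and DESeq2 called 2. Of the 5 lists, DESeq2 called 5 lower without the block. With the replicate block the lists gave 1 higher and 6 lower, which became 1 and 7 (RLE), 1 and 6 (upper quartile), 2 and 4 (library totals), 1 and 9 (no filter), 4 and 13 (DESeq2), 1 and 6 (limma-voom) and, leaving out pairs, 0 to 1 and 0 to 6. Among cell type markers not named in the report, the block also called lower Mfap4 and Mki67 (granule precursor), Car8 (Purkinje), Gja1 (astrocyte) and Tmem119 (microglia). For the members, Kdm6b and the 5 lists, edgeR with the block changed no call other than those given here and in the report.

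Kdm6b passed at −1.32 in DESeq2 (adjusted p = 0.000247). With the replicate block it was −1.28, then −1.295 (RLE and DESeq2), −1.27 (upper quartile), −1.21 (library totals), −1.29 (no filter), −1.27 (limma-voom) and −1.15 to −1.38 when pairs were left out. Without the block, leaving out libraries gave −1.47 to −1.03. Signs turned for members near 0. Scn2b was 0.003 (upper quartile), 0.047 (library totals) and 0.008 (limma-voom), and −0.216 to 0.214 as libraries were left out. With the replicate block it was 0.004, then 0.015 (upper quartile), 0.074 (library totals), 0.005 (limma-voom), and 0.055 and 0.018 without replicates 1 and 2. As single libraries were left out, Scn1a ranged from −0.394 to 0.074, Scn4b from −0.018 to 1.298 and Scn8a from −0.007 to 0.236. Scn7a was 0.119 with the replicate block without replicate 1. The cause was not tested. Scn4b and Scn9a are limited by depth, with 4 to 148 counts per library.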
